A study of Mus musculus with 2 samples.

Results

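Mir137, Mir153, Mir383, Mir384 and Mir551b are 5 miRNA genes counted as neuron-enriched that are annotated as 1 hairpin each and lie outside the imprinted miRNA locus of chromosome 12. They were picked by their GENCODE names from 2202 miRNA genes in the deposited tables, and the 5 names matched 5 rows. Their levels were read from small RNA sequencing of tissue labelled as a layer of hippocampus from female B6CASTF1/J mice aged 18 to 20 months, an F1 hybrid of the C57BL/6J and CAST/EiJ strains, with no treatment named in the labels. Both libraries belong to that single group, so the data give levels and the spread between libraries and hold no contrast of treatment, age, sex or genotype. The tissue records carry different animal numbers but 1 shared donor record. Whether the libraries come from separate animals is therefore not certain. With 1 library on each side, p-values describe only differences between these libraries, which may be technical. Which layer was taken is not stated, so the levels may not be those of the whole hippocampus. Counts of a bulk sample do not show which cells they came from, so the neuronal label of the genes could not be checked at the level of cells.

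MicroRNAs are cut from hairpin precursors by the enzymes Drosha and Dicer, and an arm of the hairpin loaded into an Argonaute protein guides the silencing of messenger RNAs that pair with its seed, bases 2 to 8. miR-137 is known from neuronal maturation and dendrite growth, miR-153 from the control of synaptic vesicle proteins and alpha-synuclein, and miR-384-5p from the maintenance of long-term potentiation in rodent hippocampus. In a bulk sample such as this, fewer cells of a type and less RNA per cell cannot be told apart.

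The mature arms of the genes are shown first because the seed decides which messenger RNAs an arm can pair with. The sequences are those of RefSeq on GRCm38.p6, the build of the mm10 files, which held mature arms for 4 of the 5 genes and hairpins for 3. Mir383 had no entry. Capitals mark the seed, and each line runs 5′ to 3′.
miR-137-5p: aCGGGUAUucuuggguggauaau
miR-137-3p: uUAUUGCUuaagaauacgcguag
miR-153-5p: gUCAUUUUugugacguugcagcu
miR-153-3p: uUGCAUAGucacaaaagugauc
miR-384-5p: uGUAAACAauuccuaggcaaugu
miR-384-3p: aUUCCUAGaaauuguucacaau
miR-551b-5p: gAAAUCAAgcuugggugagaccu
miR-551b-3p: gCGACCCAuacuugguuucag

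The 8 arms carried 8 different seeds, so by seed the genes do not form a family. For 7 of the 8 arms no other gene in the table, which does not cover every miRNA gene, carried the seed. A seed found in 1 gene was common in that table, at 68.0% of its 1738 mature arms. The exception was miR-384-5p, whose seed GUAAACA it shared with arms of Mir30a, Mir30c-1, Mir30c-2 and Mir30e, members of the broadly expressed miR-30 family. These arms are set beside it here, since reads of 1 seed come from several genes.
miR-384-5p: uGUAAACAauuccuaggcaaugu
miR-30a-5p: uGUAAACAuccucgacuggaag
miR-30c-5p: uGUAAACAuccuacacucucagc
miR-30e-5p: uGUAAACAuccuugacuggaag
The miR-30 arms matched miR-384-5p over the first 8 bases and then parted, with identical bases at 11 or 12 of the 22 or 23 positions compared.

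The arms were low in G and C, with 4 of the 8 below 40%, against 14.2% of all arms in the table and a median of 52.2%. The lowest was miR-384-3p at 27.3%, a content at or below which only 0.921% of arms lay. The highest was miR-551b-3p at 52.4%.

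The 3 hairpins below show where the arms sit, with the arms in capitals.
Mir137: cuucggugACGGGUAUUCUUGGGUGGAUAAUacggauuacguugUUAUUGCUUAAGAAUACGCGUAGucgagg
Mir153: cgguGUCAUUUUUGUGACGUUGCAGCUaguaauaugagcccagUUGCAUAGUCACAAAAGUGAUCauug
Mir384: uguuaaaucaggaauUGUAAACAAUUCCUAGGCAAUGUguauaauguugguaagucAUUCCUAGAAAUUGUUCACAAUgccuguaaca
The arms were separated by 13 bases in Mir137, 16 in Mir153 and 18 in Mir384. In Mir384 both arms contained AUUCCUAG, a stretch of 8 bases on the same strand. The longest such stretch was 4 bases in Mir137, 5 in Mir153 and 5 in Mir551b. Among 677 genes with both arms in the table the median was 4 bases, and 10 of them (1.48%) reached 8.

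The single-copy label held in the annotation for the 4 genes with sequences. The longest stretch that any of the 8 arms shared with another hairpin of the RefSeq table, on either strand, was 9 to 11 bases, so none shared 20. A search of 141767 GENCODE transcripts found each arm in its own gene and nowhere else, except that both arms of Mir137 also stood in Gm26871, a noncoding transcript that contains the Mir137 hairpin. The genome itself was not searched, and copies outside annotated transcripts were not tested. Reads that map to several places are a separate total in the files, amounting to 1.20 (replicate 1) and 1.29 (replicate 2) for each counted read, and how many of them came from these genes is not recorded.

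On mm10, Mir137 (ENSMUSG00000065569.2) lies at chromosome 3, 118433857 to 118433929, on the plus strand. It overlaps an exon in all 3 Gm26871 transcripts that span it. Mir551b (ENSMUSG00000076120.1) lies on the same chromosome and strand at 29416823 to 29416920, intronic in all 4 spanning transcripts of Egfem1. Mir153 (ENSMUSG00000065538.1) lies at chromosome 12, 117250817 to 117250885, on the plus strand, in an intron of Ptprn2, which encodes a phosphatase-like protein of dense-core vesicles. The noncoding gene Gm5441 runs over Mir153 on the other strand. Mir383 (ENSMUSG00000065457.3) lies at chromosome 8, 38252133 to 38252202, on the minus strand, in an intron of Sgcz, which encodes zeta-sarcoglycan. Mir384 (ENSMUSG00000065499.1) lies at chromosome X, 105344282 to 105344369, on the minus strand, and overlaps no annotated gene. The hosts of Mir137, Mir153, Mir383 and Mir551b run on the same strand as the hairpin.

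Levels are given as CPM, the sense-strand counts of a gene per 1000000 sense counts of all miRNA genes in its library. That sum was 2255838 in replicate 1 and 4521208 in replicate 2, and intervals are exact 95% Poisson intervals, which cover counting error only. The unmapped share of all reads was 29.0% for replicate 1 against 11.2% for replicate 2, and its part in the differences described here was not tested. Some marker lists hold same-named copies, such as Mir124a and Mir9 in the neuron list, that can lose reads to multimapping. The shares of the lists therefore do not compare amounts of cell types. Of the marker lists used, the neuron list, which includes the 5 genes, took 12.2% ± 2.06 (SD, n = 2) of the counts. The endothelial and mural list took 3.40% ± 0.612, led by Mir126a (25458 CPM) and Mir143 (8305 CPM). The oligodendrocyte list took 0.611% ± 0.101, led by Mir338 (3442 CPM) and Mir219a-2 (2665 CPM), and the microglia and leukocyte list 0.333% ± 0.109, led by Mir342 (2361 CPM) and Mir150 (788 CPM). The erythroid genes Mir451a (88.0 CPM) and Mir144 (33.1 CPM) took 0.0121% ± 0.000175. The liver and muscle list was near 0, at 0.00289% ± 0.00202, all of it from Mir122 (28.9 CPM), with no count for Mir1a-1 and the other 3 genes. The choroid plexus and ependyma list took 0.339% in replicate 1 and 0.159% in replicate 2, with 9 of its 10 genes at or above 1 CPM in both, and Mir34c led it at 981 ± 870 CPM, ahead of Mir204 at 917 ± 166 CPM. Its part in the differences between libraries was not tested.

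All 5 genes were counted in both libraries, over a wide range of levels. Mir137 had 22795 counts in replicate 1, or 10105 CPM (9974 to 10237). In replicate 2 it had 54115 counts, or 11969 CPM (11869 to 12070). It was higher in replicate 2, by more than counting error. Its mean was 11037 ± 1318 CPM (SD, n = 2), and it was the miRNA gene of rank 20 in each library.

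Mir383, the next in level, had 3333 counts in replicate 1, or 1477 CPM (1428 to 1529), and 8315 in replicate 2, or 1839 CPM (1800 to 1879). It too was higher in replicate 2, and the intervals did not overlap. The mean was 1658 ± 256 CPM, and its rank went from 83 to 66.

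Mir153 had 1132 counts in replicate 1, or 502 CPM (473 to 532), and 2175 in replicate 2, or 481 CPM (461 to 502). The intervals overlapped, and no difference beyond counting error was seen for this gene. Its mean was 491 ± 14.7 CPM. Relative to the mean, that spread was the smallest of the 5 genes. The size of its log2 ratio was also the smallest, here and with edgeR's TMM factors or DESeq2 size factors. These factors are other ways to scale libraries to each other. In the main scaling its coefficient of variation was 2.98%, close to the 2.59% that counting error alone would give. The log2 ratio was larger in size with DESeq2 size factors, at 0.12 against -0.06 in the main scaling. Mir153 ranked 127 in replicate 1 and 122 in replicate 2.

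Mir384 had 1138 counts in replicate 1, or 504 CPM (476 to 535), and 1686 in replicate 2, or 373 CPM (355 to 391). It was lower in replicate 2, without overlap of the intervals. Its mean was 439 ± 93.0 CPM, with a coefficient of variation of 21.2%, and its ranks were 126 and 132. Its coefficient of variation was the largest of the 5 genes, and so was the size of its log2 ratio, in this scaling only. With TMM factors or DESeq2 size factors the log2 ratio of Mir383 was the largest in size, at 0.42 and 0.49.

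Mir551b was the least abundant. It had 158 counts in replicate 1, or 70.0 CPM (59.5 to 81.9), and 246 in replicate 2, or 54.4 CPM (47.8 to 61.7), and the 2 intervals overlapped at their ends. The mean was 62.2 ± 11.1 CPM and the ranks were 219 and 232. A count of 0 would have allowed 1.33 CPM in replicate 1 and 0.664 CPM in replicate 2, so even this gene stood far above the floor.

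**Figure D1:**
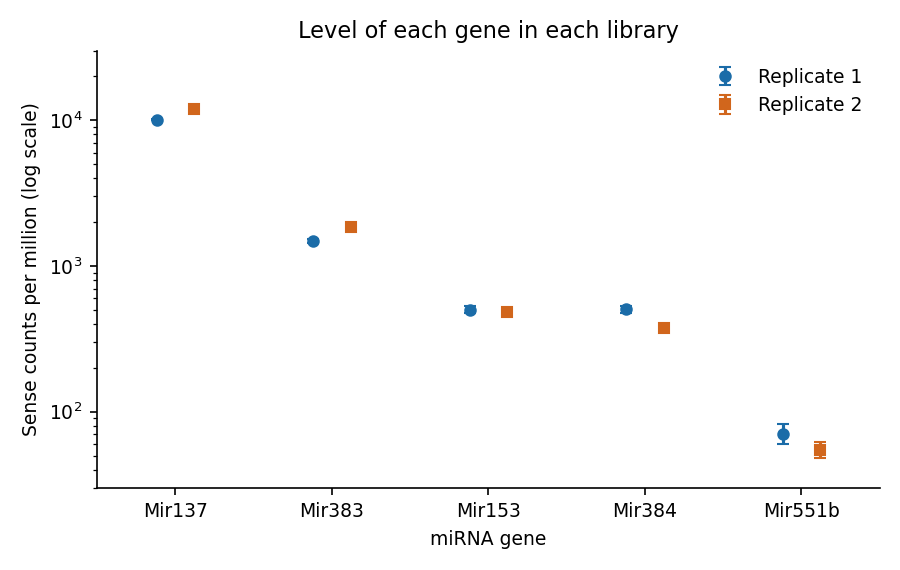
CPM of each gene (log axis) in replicate 1 (circles) and replicate 2 (squares), with exact 95% Poisson intervals as bars. Mir137 and Mir383 sat higher in replicate 2, Mir384 and Mir551b lower, and Mir153 at 502 and 481 CPM.

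By mean level the order was Mir137, Mir383, Mir153, Mir384 and Mir551b. The neighbours Mir137 and Mir383, Mir383 and Mir153, and Mir384 and Mir551b did not overlap in their library values. Mir153 and Mir384 did overlap and were not separated, and in replicate 1 Mir384 was the higher of them, with 1138 counts against 1132. Reads of miRNAs span the mature arm, so a level per gene does not scale with hairpin length, but per 100 bases of hairpin the order was the same, from 15119 CPM for Mir137 to 63.5 CPM for Mir551b. Between neighbours in this order lay 52 other genes from Mir137 to Mir383, 51 from Mir383 to Mir153, 3 from Mir153 to Mir384 (Mir501, Mir1843b and Mir375) and 99 from Mir384 to Mir551b. Adapter ligation can favour some arms over others, so the order is that of reads.

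**Figure D2:**
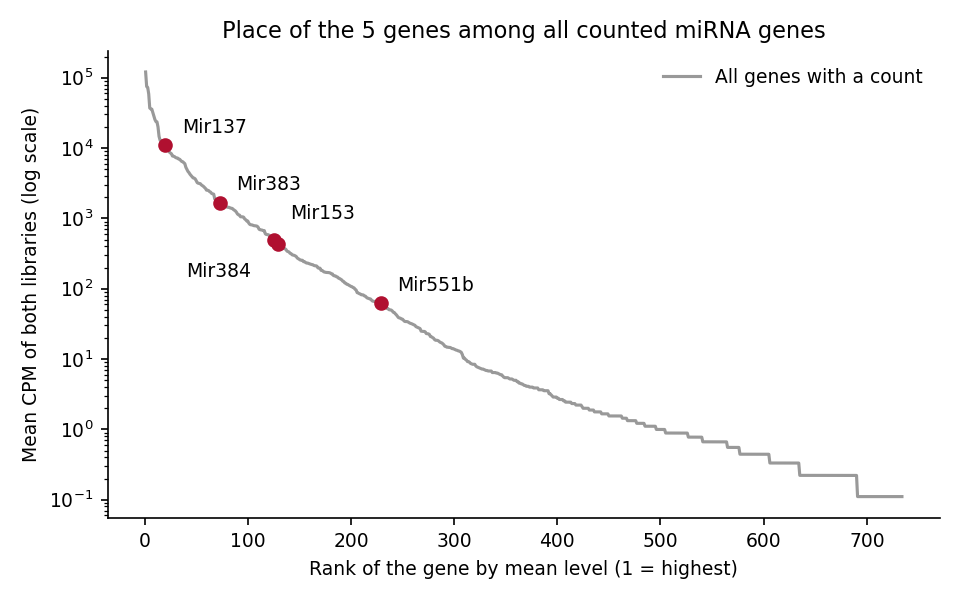
Mean CPM (log axis) of the 734 miRNA genes with a count, in order of rank, with the 5 genes marked. Mir137 stood at rank 20, Mir383 at 73, Mir153 at 125, Mir384 at 129 and Mir551b at 229.

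Together the 5 genes took 1.27% of the counts in replicate 1 (1.25 to 1.28, exact binomial interval) and 1.47% in replicate 2 (1.46 to 1.48), a mean of 1.37% ± 0.146 (SD, n = 2). Mir137 alone made up 79.8% and 81.3% of that. The antisense column was empty for all 5 genes in both libraries, which allows antisense reads of up to 0.0132% of the sense counts for Mir137 and 1.90% for Mir551b in replicate 1. Their unstranded counts were equal to their sense counts, also for Mir153 with Gm5441 on the other strand. Both features were usual, since of 446 genes at 1 CPM or more in both libraries 93.9% had no antisense count and 89.2% had equal columns.

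The libraries were then compared gene by gene, to see whether the 5 genes vary more or less than other miRNAs between 2 samples of the same kind. An exact conditional binomial test was run on the 495 genes whose mean level was at least 1 CPM, with Benjamini-Hochberg adjustment over all of them. A gene was called at an adjusted p under 0.05 and a difference of 2-fold or more. The test compares the reads of 2 libraries, not conditions, and takes counting error alone as its error.

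None of the 5 genes was called by the exact binomial test, against 17.6% of the genes tested (87 of 495). At that background a count of 0 among 5 is no result about these genes. Of all genes tested, 19 were called higher in replicate 2 (3.84%) and 68 lower (13.7%), a split of 27 and 48 with DESeq2 size factors. The median absolute log2 ratio was 0.32 for the 5 genes and 0.51 for all genes tested. Each of the 5 was below that overall median, and below the like medians of 0.49 with TMM factors and 0.51 with DESeq2 size factors. Abundant genes varied less, with a median of 0.41 over the 203 tested genes of at least 100 CPM in mean level, a group that holds 4 of the 5. Mir384, with a log2 ratio of -0.44, was above that median in size. The median of abundant genes was taken in the main scaling only. With DESeq2 size factors the log2 ratios were 0.42 for Mir137, 0.12 for Mir153, 0.49 for Mir383, -0.26 for Mir384 and -0.19 for Mir551b.

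Without the fold threshold, 53.5% of the genes tested had an adjusted p under 0.05, and so did 4 of the 5. Mir384 was 1.35-fold lower in replicate 2 (1.25 to 1.46), a log2 ratio of -0.44, with an adjusted p of 2.9e-14 by the exact binomial test. Mir383 was 1.24-fold higher in replicate 2 (1.20 to 1.30), with a log2 ratio of 0.32 and an adjusted p of 1.1e-26 by the same exact test. For Mir137 the difference was 1.18-fold higher (1.17 to 1.20), a log2 ratio of 0.24, with an adjusted exact p of 2.8e-103. At counts this high the test passes at small differences.

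Mir551b was 1.29-fold lower in replicate 2 (1.05 to 1.58), a log2 ratio of -0.37 with an adjusted exact p of 0.030, which rose to 0.14 with edgeR's TMM factors and to 0.33 with DESeq2 size factors. Mir153 had a log2 ratio of -0.06 (-0.17 to 0.04) and an adjusted exact p of 0.36. Its sign turned with those scalings, to 0.04 and 0.12. TMM factors raised every log2 ratio by 0.10 and DESeq2 size factors by 0.18, while the median over all genes tested was -0.19 in the main scaling. Relative to that median, Mir384 and Mir551b lay below it and the other 3 genes above it.

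The spread between the libraries was also taken as the error. In edgeR the common dispersion came to a biological coefficient of variation of 39.0%. Its exactTest at that dispersion called 3 genes (0.606% of those tested), namely Mir26a-1, Mir301 and Mir1247, with 26 genes (5.25%) at an unadjusted p under 0.05. None of the 5 genes was among these 26. The dispersion came from the very differences being tested, with 1 library on each side, so this outcome says nothing about how stable the 5 genes are.

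**Figure D3:**
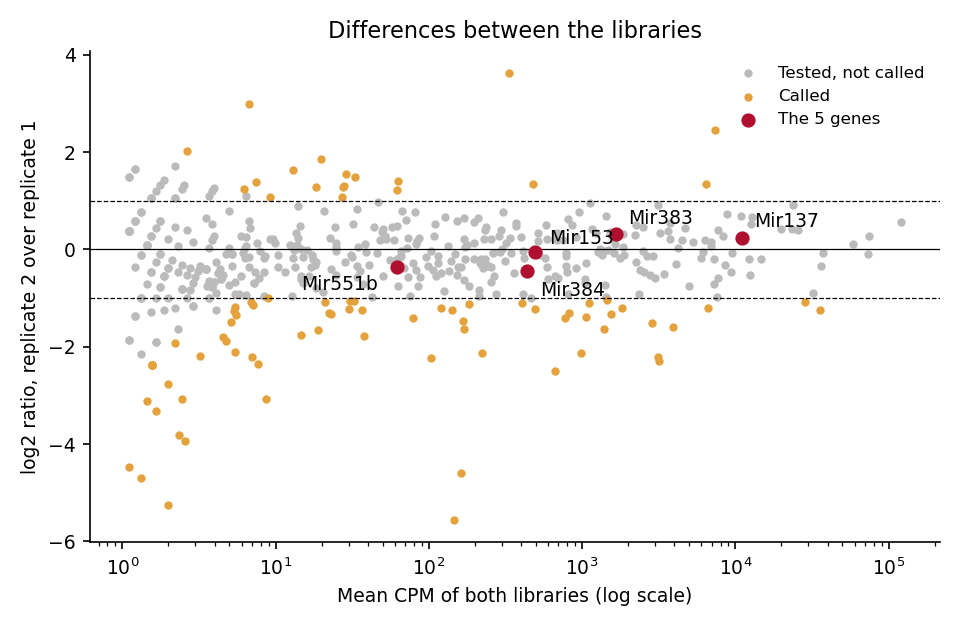
log2 ratio of replicate 2 over replicate 1 against mean CPM (log axis) for the 495 genes tested, with called genes in orange, the 5 genes in red and dashed lines at 2-fold. The 5 genes lie inside the dashed lines, between -0.44 and 0.32.

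Ratios of counts within a library do not depend on how the libraries are scaled, so they were taken for each pair of the 5 genes. Mir137 had 6.84 times the counts of Mir383 in replicate 1 (6.59 to 7.09, exact binomial interval) and 6.51 times in replicate 2 (6.36 to 6.66). Mir384 had 7.20 times the counts of Mir551b in replicate 1 (6.09 to 8.56) and 6.85 times in replicate 2 (5.99 to 7.87). In both of these pairs the intervals overlapped, as they did for Mir153 over Mir551b, at 7.16 and 8.84.

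For the other 7 of the 10 pairs the intervals of the libraries did not overlap. The same held for 31.9% of the 120786 pairs among the 492 tested genes with counts in both libraries, and for 78.7% of the 26106 pairs among the 229 genes at or above the level of Mir551b. At that background, 7 of 10 is no result about these genes, and the ratios are given as a description. The widest change was that of Mir383 over Mir384, from 2.93 (2.74 to 3.14) to 4.93 (4.68 to 5.20), a factor of 1.68. Mir137 over Mir384 went from 20.0 (18.9 to 21.3) to 32.1 (30.6 to 33.7), and Mir137 over Mir551b from 144 (123 to 170) to 220.0 (194 to 250.4). Mir153 over Mir384 went from 0.995 (0.915 to 1.08) to 1.29 (1.21 to 1.38). The counts of Mir137 and Mir383 thus rose relative to those of Mir384 and Mir551b in replicate 2. With 1 library per tissue sample these changes have no replicate check.

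**Figure D4:**
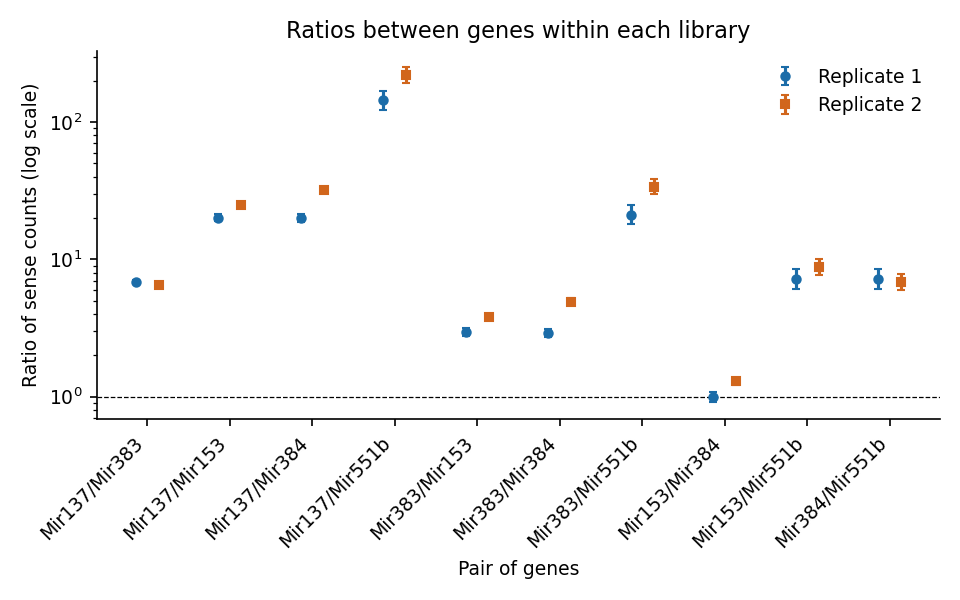
Ratio of sense counts (log axis) for the 10 pairs of genes in replicate 1 (circles) and replicate 2 (squares), with exact 95% binomial intervals and a dashed line at equal counts. Intervals overlap for Mir137/Mir383, Mir153/Mir551b and Mir384/Mir551b.

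Among the genes that the RefSeq table lists with the GUAAACA seed, Mir384 was a minor source of counts. It held 5.07% of the counts of these 5 genes in replicate 1 (4.79 to 5.37, exact binomial interval) and 3.36% in replicate 2 (3.21 to 3.52). The table does not cover every miRNA gene, so the seed is not limited to these 5, and both shares are upper limits of the share of Mir384 in the whole seed family. Mir30a was at 5324 ± 379 CPM and Mir30e at 4478 ± 443 CPM, roughly an order of magnitude above Mir384. Mir30c-1 at 110.1 ± 28.5 CPM and Mir30c-2 at 169 ± 52.0 CPM carry the same mature miR-30c-5p, so reads of that arm can be among the multimapping total and their levels can be too low. The 4 miR-30 genes were higher in replicate 2, with log2 ratios between 0.15 and 0.64, whereas Mir384 was lower. None of them was called. A count covers both arms of a hairpin, so these are shares of gene counts and not of seed-bearing molecules.

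Few miRNA genes lie near the 5. Mir325, on the same strand 34713 bases from Mir384, stood at 130 and 137 CPM in replicates 1 and 2, a mean of 134 ± 5.12 CPM. Unlike Mir384, it was not lower in replicate 2, and the difference between these genes was not tested. The unnamed hairpin Gm24155, 792 bases from Mir137 on the same strand, had 1 count in replicate 1 and 0 in replicate 2. No other annotated miRNA gene lay within 50 kb of any of the 5.

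The genes most like each of the 5 were taken as those at the smallest distance in log2(CPM + 1) over the 2 libraries, which measures level more than pattern. For Mir137 they were Mir26b, at a distance of 0.03 log2 units, and Mir22 at 0.32. For Mir383 they were Mir434 (0.10) and Mir872 (0.14), and for Mir153 they were Mir300 (0.13) and Mir34a (0.20). Mir384 was nearest to Mir326 (0.20) and Mirlet7c-1 (0.31), and Mir551b to Mir412 (0.11) and Mir483 (0.13).

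The other 25 genes of the neuron list gave the setting. They took 12.4% of the counts in replicate 1 and 9.28% in replicate 2, so the 5 genes made up 9.26% of the list's counts in replicate 1 and 13.7% in replicate 2. Mir127, at 35995 ± 6023 CPM, and Mir132, an activity-responsive miRNA at 28639 ± 14580 CPM, led those 25. By mean level Mir137 was the fourth gene of the whole list, after Mir128-1. In replicate 1 it also stood below Mir411, at 10105 against 10792 CPM. At least 1 CPM in both libraries was found for 20 of the 25, and the median level of the 25 was 301 CPM, against 491 CPM for the 5 genes and 38.0 CPM for all genes tested. Many of the 25 exist as same-named copies, such as Mir124a and Mir9, and can lose reads to multimapping. The medians and the place of Mir137 in the list therefore do not rank the genes by abundance in the tissue.

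Of the 22 other neuron genes tested, 3 were called between the libraries (13.6%, near the background), 1 higher and 2 lower in replicate 2. The higher one was Mir9-1, at 6.21 and 19.9 CPM. The lower ones were Mir132, at 38949 and 18329 CPM, and Mir129-1, at 363 and 82.7 CPM. Mir129-1 and Mir9-1 are same-named copies, so their levels are uncertain. The median log2 ratio of the 22 was -0.24, beside -0.06 for the 5 genes and -0.19 for all genes tested.

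**Figure D5:**
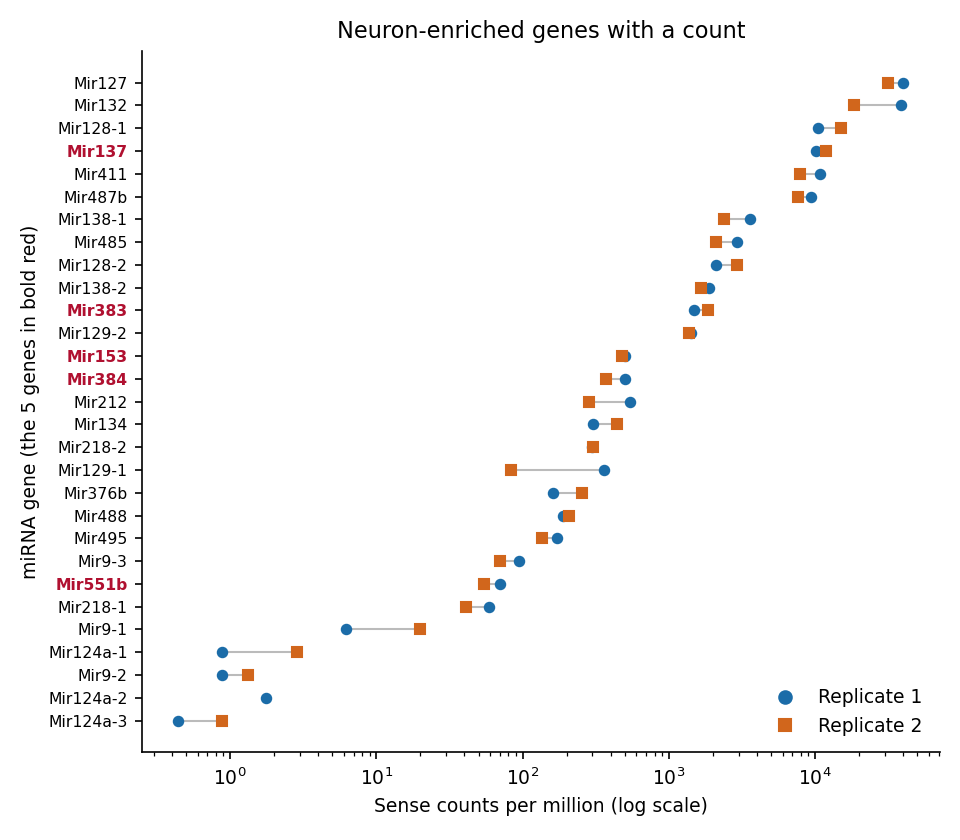
CPM (log axis) of the neuron-list genes with a count in replicate 1 (circles) and replicate 2 (squares), joined by a line, with the 5 genes in bold red. The 5 genes run from 62.2 to 11037 CPM in mean level, and a gene at 0 in a library has no symbol for it.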

How the data were processed

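RNA under 30 nt was sequenced, per the labels. Each library has its own deposited table of raw counts by miRNA gene, with columns for no strand, sense and antisense after 4 rows of totals, which were kept out of library sums and tests. Reads were placed on mm10 with GENCODE M21 genes, per the file headers of the deposited descriptions. For the aligner and the counter, the name and settings are not stated in the sources at hand. Sense counts were scaled to CPM, and log2 ratios used a pseudocount of 0.5 counts. Tests used scipy 1.17.1, edgeR 4.0.16 (TMM, estimateDisp with an intercept only, exactTest) and DESeq2 1.42.0 (size factors only). The dispersion was estimated with TMM factors, while exactTest itself was run without them. The binomial test was checked on simulated data with counting error only. That check does not cover spread between libraries beyond counting error. Sequences came from RefSeq tables. No genome sequence was used, so mature arms were matched to annotated transcripts and hairpins in its place. The members and lists were chosen with earlier results of these data known. The named genes are the 5 members, the 2 nearest genes of each, genes sharing a seed, miRNA genes within 50 kb, and the 2 highest genes of each marker list. The called neuron genes, Mir128-1, Mir411, the genes between Mir153 and Mir384 and the genes called by edgeR were named after their values were seen.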

Additional observations from a re-analysis of the deposited data

How the results depend on the processing

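The 84 values under alternatives include some that could not move. A mean with 1 of 2 libraries left out always lies within the replicate spread, and a filter leaves a gene's log2 ratio unchanged. Of the 84, 69 kept their direction and call at 2-fold, or stayed within the replicate spread or 1.5 times the main count. That does not mean that sizes held: over the alternatives the log2 ratios ranged from 0.24 to 0.42 for Mir137, 0.32 to 0.49 for Mir383, -0.44 to -0.26 for Mir384 and -0.37 to -0.19 for Mir551b, whose adjusted p was 0.14 with TMM factors and 0.33 with DESeq2 size factors. By edgeR's exactTest every adjusted p of the 5 genes was 1.0. With all reads as the denominator, the mean levels fell to 3749 for Mir137, 565 for Mir383, 165 for Mir153, 145 for Mir384 and 20.7 for Mir551b per 1000000 reads, and the share of the 5 genes to 0.464%, by construction. In the unstranded column, whose sum is smaller, all 5 levels rose, among them Mir137 to 12086 CPM and Mir153 to 538 CPM. Only Mir153 rose by more than its replicate spread. The log2 ratio of Mir153 turned to 0.041 with TMM factors and 0.12 with DESeq2 size factors. Called genes numbered 53 of 310 tested at a filter of 10 CPM, 39 of them lower in replicate 2, beside 87 of 495 in the main run. They numbered 3 by edgeR's exactTest, 1 higher and 2 lower, which takes the spread between the libraries as its error. Per 100 bases of hairpin, the ratio of Mir153 to Mir384 went from 1.14 to 1.46.

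None of the 5 genes was called by the exact binomial test under any alternative run. Without replicate 1 or without replicate 2 the levels ranged from 10105 to 11969 CPM for Mir137, 1477 to 1839 for Mir383, 481 to 502 for Mir153, 373 to 504 for Mir384 and 54.4 to 70.0 for Mir551b, and the share from 1.27% to 1.47%. The library comparison cannot be run with a library left out. No paired analysis was possible because both libraries belong to 1 group. The search of the genome for copies was not run. Depth limits Mir551b most, at 158 and 246 counts.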
